A study of Mus musculus with 24 samples.

Results

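The comparison described here sets eGFP-positive pancreatic cells of mutant embryos carried by dams on a high-fat diet (HFD) against the same cells from dams on a normal diet (ND). It holds 7 of the 24 samples of the series, 3 on HFD and 4 on ND, chosen by their titles. All embryos came from the Ngn3-eGFP line, in which the enhanced green fluorescent protein takes the place of the coding part of Neurog3 (also called Ngn3). Heterozygous dams (Ngn3eGFP/+), 6 weeks old, ate their diet for 2 weeks before mating with heterozygous males kept on control diet and stayed on it until the embryos were taken at E15.5. Male and female embryos were pooled, the pancreas was dissociated with trypsin, and eGFP-positive cells were sorted for bulk RNA sequencing after depletion of ribosomal RNA. The design text does not use the word mutant and describes Ngn3eGFP/eGFP embryos, whose sorted cells lack Neurog3 protein and are not yet islet progenitors, and Ngn3eGFP/+ embryos, whose sorted cells are committed to the endocrine fate. The genotype field of the samples gives Ngn3eGFP/+ for libraries titled mutant, although their low Neurog3 and hormone levels, given below, go with the other genotype. The groups are therefore named by title. The labels do not say whether replicates were separate litters, so p-values measure the spread between these samples, which may be technical in part.

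Neurog3 is the transcription factor that commits cells of the pancreatic trunk epithelium to the endocrine fate. Without it, cells that activate its promoter do not go on to make insulin, glucagon or the other islet hormones and keep features of duct-like progenitors. In the embryonic pancreas these cells lie beside the forming acinar cells, which make digestive enzymes, and are wrapped in mesenchyme, which makes the collagen-rich matrix and sends Wnt, fibroblast growth factor and other signals to the epithelium.

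Levels below are counts scaled to library size by the trimmed mean of M-values (TMM-scaled CPM), written CPM. Neurog3 itself (ENSMUSG00000044312.4, chr10:62133090-62134763 on GRCm38.p6) stood at 11.3, 6.09 and 8.16 CPM in HFD replicates 1 to 3 and at 8.55, 17.6, 8.52 and 10.1 CPM in ND replicates 1 to 4. The 6 titled control libraries on the same diets held 85 to 201 CPM, so every titled mutant library lay below every titled control library. Between the diets Neurog3 differed by less than its error in titled mutant (log2 fold change -0.36, SE 0.38, edgeR adjusted p = 0.601). The progenitor label was checked against Sox9, a regulator of trunk and duct cells, Pdx1 and Nkx6-1, which mark pancreatic progenitors, and Epcam, an epithelial adhesion protein. Sox9 was 172, 169.8 and 195 CPM on HFD and 208, 189, 199 and 199 CPM on ND, and Epcam was 390, 393 and 448 CPM on HFD and 369, 342, 385 and 360.1 CPM on ND. Pdx1 was 85.6, 78.5 and 65.3 CPM on HFD and 90.6, 80.9, 94.6 and 81.3 CPM on ND. These markers were present in every library, and none of them passed the test between the diets. Nkx6-1 was 92.3, 93.3 and 86.3 CPM on HFD and 111, 235, 139.6 and 110.5 CPM on ND, with all 3 HFD libraries below all 4 ND libraries but an edgeR adjusted p of 0.134.

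The ND libraries were less even than the HFD libraries. Total counts ran from 22361035 in ND replicate 2 to 44688814 in HFD replicate 1. Gm26917, a locus annotated as a long noncoding RNA, took 14.74% to 16.01% of counts on HFD, 16.3% and 18.7% in ND replicates 1 and 4, 33.4% in ND replicate 3 and 66.9% in ND replicate 2. Reads marked as duplicates made up 46.6% to 54.7% on HFD and 53.4%, 79.4%, 72.2% and 65.5% in ND replicates 1 to 4. ND replicate 2 kept 7390739 counts outside Gm26917, against 20781006 to 37562657 in the other 6 libraries, and 17861 genes had a count in it, against 25823 to 29522. The number in each library's description, whose meaning the labels do not state, is 13, 14 and 16 for HFD, 10 for ND replicate 1 and 25, 26 and 28 for the other ND libraries. Diet and this number therefore cannot be told apart in 3 of the 4 ND libraries.

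Of 23630 genes tested, 676 passed an adjusted p of 0.05 between HFD and ND in titled mutant, which is 2.86% of the genes tested. Higher on HFD were 227 genes (0.961%), with a median log2 fold change of 0.79, and lower were 449 genes (1.90%), with a median of -1.17. The HFD and ND libraries did not overlap in any of the 227 higher genes. They did not overlap in 424 of the 449 lower genes either, against 19.2% of all genes tested. For a gene that passed, a lack of overlap therefore adds little. The test was edgeR's quasi-likelihood test with Benjamini-Hochberg adjustment, in a fit of 21 pancreatic libraries in 6 groups that share an estimate of the spread. The number rested on that shared fit and on which libraries were in it. With the 7 compared libraries alone, edgeR passed 0 genes, with 2665 at an unadjusted p under 0.05, and DESeq2 in the 21-library fit passed 2373, of which 659 were among the 676. Without the ND libraries of over 70% duplicates, titled mutant ND replicates 2 and 3 and a titled control library, 312 genes passed, 180 of them among the 676. Leaving out HFD replicate 1, 2 or 3 left 72, 45 or 42 genes, and leaving out ND replicate 1, 2, 3 or 4 gave 1835, 556, 393 or 1275. With a covariate marking the libraries numbered from 25 up, 12 genes passed, and 675 of the 676 kept the sign of their change. The 676 were chosen in these same libraries, so a kept sign is not independent support.

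The change also followed base composition. Genes lower on HFD had a median transcript GC content of 55.2%, genes higher had 48.0%, and all genes tested had 49.1%. In the fifth of genes with the lowest GC content 43 were higher and 14 lower, and in the fifth of highest GC content 23 were higher and 237 lower. The median log2 fold change went from 0.147 in the lowest to -0.252 in the highest of 5 equal groups. Without the ND libraries of over 70% duplicates no group's median was farther from 0 than -0.031, and in the plot of change by GC content both reduced sets of libraries lie close to 0. When the GC trend was removed by an offset, 893 genes passed, 395 higher and 498 lower, and 545 of them were among the 676. The part of library quality in the results below was not tested.

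**Figure D1:**
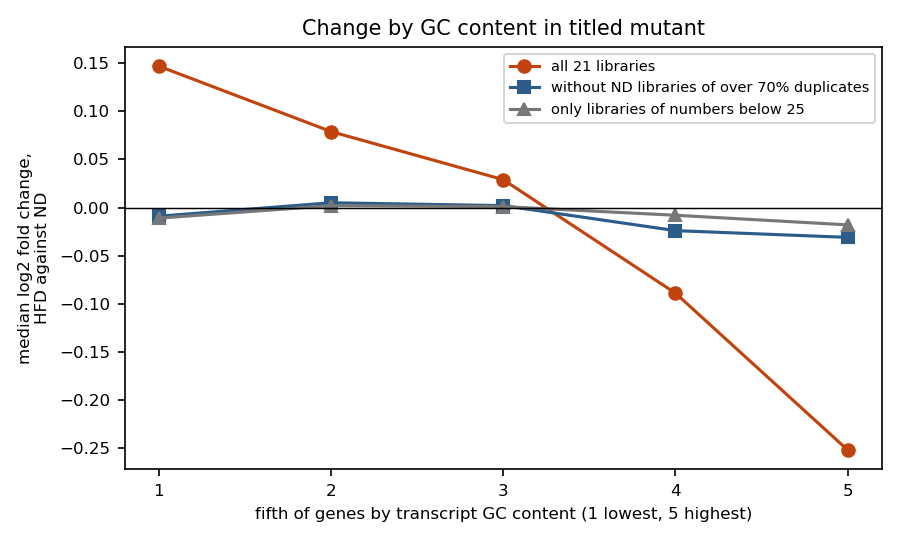
Median log2 fold change, HFD against ND in titled mutant (y axis), in 5 groups of genes ordered by transcript GC content (x axis), for the 21-library fit and for 2 sets with fewer libraries. The slope from 0.147 to -0.252 is seen with all libraries, while the fits without the high-duplicate ND libraries or with only numbers below 25 stay near 0.

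Across the 21 alternative analyses tried, a gene of the 676 passed in 8 at the median, and 19 genes passed in at least 16. Of the 676, 8 passed in each of the 3 settings that handle the uneven ND libraries, that is, without the high-duplicate ND libraries, within library numbers below 25 and with a term for the number. They were picked out after their values were seen. Within numbers below 25, ND replicate 1 is the only ND library of titled mutant left, and without the high-duplicate libraries ND replicates 1 and 4 are left. The 3 settings thus share ND replicate 1 and are not independent of each other. Tmed11, of the p24 family of receptors that load cargo into vesicles between the ER and the Golgi, had the smallest p of all and passed in 20 of the 21, all but the fit of the 7 libraries alone. Its levels were 3.05, 2.43 and 3.14 CPM in HFD replicates 1 to 3 and 0.142, 0, 0.122 and 0.281 CPM in ND replicates 1 to 4 (log2 fold change 4.11, SE 0.47, edgeR adjusted p = 0.000474). Arfgef3, of the family that activates ARF proteins in vesicle traffic, was 235, 227 and 236 CPM on HFD and 112, 95.1, 129 and 144 CPM on ND (log2 fold change 0.95, SE 0.14, edgeR adjusted p = 0.00326). Arfgap3, which switches ARF1 off at the Golgi, was 99.8, 102 and 118 CPM on HFD and 53, 65.7, 69.4 and 75.8 CPM on ND (log2 fold change 0.69, SE 0.14, edgeR adjusted p = 0.0141). These 3 genes of vesicle traffic were higher in every HFD library than in any ND library, and none of the 227 higher genes overlapped. Ell2, a transcription elongation factor, was 91.2, 88.3 and 92.9 CPM on HFD and 43.9, 37.8, 49.4 and 56.8 CPM on ND (log2 fold change 0.95, SE 0.13, edgeR adjusted p = 0.00326). Rnf157, a ubiquitin ligase known from neurons, was lower, at 5.96, 6.09 and 5.12 CPM on HFD and 12.2, 12.3, 13.1 and 12.3 CPM on ND (log2 fold change -1.13, SE 0.16, edgeR adjusted p = 0.00326). Scube3, a secreted signalling protein, was 8.28, 10.5 and 8.13 CPM on HFD and 18.8, 22.3, 19.4 and 18.2 CPM on ND (log2 fold change -1.13, SE 0.17, edgeR adjusted p = 0.00372), and the matrix protein Smoc2 was 23.8, 23.9 and 27.9 CPM on HFD and 63, 42.6, 54.7 and 52.9 CPM on ND (log2 fold change -1.08, SE 0.17, edgeR adjusted p = 0.00444). For each of Ell2, Rnf157, Scube3 and Smoc2 the 2 diets did not overlap, as in all 227 higher genes and 424 of the 449 lower ones. The last of the 8, Tat, an amino acid catabolic enzyme of liver, was 0.0226, 0 and 0 CPM on HFD and 17.5, 0.235, 0.163 and 0.0936 CPM on ND. The highest level was in ND replicate 1, which also held 161 CPM of the liver gene Alb, and without that library Tat had a log2 fold change of -3.51 (edgeR adjusted p = 0.0652), against -8.44 (edgeR adjusted p = 0.0269) with it.

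Of 32 genes for protein folding in the endoplasmic reticulum (ER), 7 rose on HFD and none fell, against 0.961% and 1.90% of all genes tested. The list had a median log2 fold change of 0.41, against -0.01 over all genes tested. In the ER newly made secreted proteins fold with the help of chaperones, and chains that misfold are pulled out and degraded. Among the genes that rose, Dnajc3, Dnajb9 and Dnajb11 encode co-chaperones of the main ER chaperone BiP, and Herpud1 and Syvn1 act in degradation of misfolded chains. Sec61a1 encodes a part of the channel through which new chains enter the ER, and Ssr1 a part of a complex associated with that channel. The promoters of 4 of these genes are shown because they hold both parts of the ER stress element, CCAAT and CCACG, through which the factors ATF6 and NF-Y act. The 250 bases before the RefSeq start are given on GRCm38.p6, with CCAAT and CCACG, on either strand, in capitals.
Dnajc3, chr14:118937682-118937931 (+ strand): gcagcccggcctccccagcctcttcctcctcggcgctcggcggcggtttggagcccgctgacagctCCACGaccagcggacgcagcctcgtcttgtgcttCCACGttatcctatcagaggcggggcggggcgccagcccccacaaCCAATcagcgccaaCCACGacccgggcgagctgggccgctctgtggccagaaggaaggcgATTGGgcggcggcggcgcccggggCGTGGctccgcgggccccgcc
Syvn1, chr19:6046326-6046575 (+ strand): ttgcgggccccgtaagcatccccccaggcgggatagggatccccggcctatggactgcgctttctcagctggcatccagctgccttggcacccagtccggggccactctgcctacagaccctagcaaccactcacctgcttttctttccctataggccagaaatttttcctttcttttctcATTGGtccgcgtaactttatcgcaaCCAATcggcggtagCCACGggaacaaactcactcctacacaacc
Herpud1, chr8:94386179-94386428 (+ strand): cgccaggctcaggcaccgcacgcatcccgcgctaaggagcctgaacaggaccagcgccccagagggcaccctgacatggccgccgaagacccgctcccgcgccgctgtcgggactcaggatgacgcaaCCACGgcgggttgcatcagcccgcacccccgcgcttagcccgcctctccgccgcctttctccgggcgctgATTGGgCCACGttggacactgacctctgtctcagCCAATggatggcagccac
Dnajb9, chr12:44210069-44210318 (- strand): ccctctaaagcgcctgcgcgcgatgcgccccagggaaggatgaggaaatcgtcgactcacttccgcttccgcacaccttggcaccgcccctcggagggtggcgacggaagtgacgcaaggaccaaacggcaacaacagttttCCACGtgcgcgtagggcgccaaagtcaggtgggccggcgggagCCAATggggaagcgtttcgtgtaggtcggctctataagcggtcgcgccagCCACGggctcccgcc
Either strand counted, CCAAT was in 34.5% and CCACG in 28.2% of 27025 RefSeq promoters of this length, and 9.5% held both. Of the 7 genes that rose, 6 had a promoter in the table and 4 held both motifs. The complete element, CCAAT and CCACG with 9 bases between them, was in 33 of the 27025 promoters (0.12%) and in 9 of 26 promoters of the list. Of these 9, Dnajc3 and Syvn1 rose, while Hspa5, Hsp90b1, Pdia6, Calr, Canx, Creld2 and Derl3 did not pass. The element was therefore not particular to the genes that rose. The related form ATTGG, 1 base and CCACG was in 9 promoters (0.03%), Herpud1 among them. A match of letters describes the promoter and is not evidence of binding.

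Dnajc3 (ENSMUSG00000022136.8, chr14:118937976-118981697) was 279.6, 282 and 267 CPM in HFD replicates 1 to 3 and 163, 162, 200.1 and 197 CPM in ND replicates 1 to 4 (log2 fold change 0.61, SE 0.12, edgeR adjusted p = 0.0131). Herpud1 was 176, 175 and 233 CPM on HFD and 81.6, 104, 105 and 123 CPM on ND, a log2 fold change of 0.91 (SE 0.19, edgeR adjusted p = 0.0159). Dnajb9 was 33.7, 30.3 and 28.7 CPM on HFD and 17.2, 7.27, 17 and 18 CPM on ND, a log2 fold change of 1.04 (SE 0.24, edgeR adjusted p = 0.0257). In all of these the diets did not overlap, and for Dnajb9 the lowest level was that of ND replicate 2, the library with the fewest usable counts. Dnajb11 changed by 0.51 (SE 0.12, edgeR adjusted p = 0.0278) on the log2 scale. The abundant chaperones themselves did not pass: Hspa5, which encodes BiP, had a log2 fold change of 0.29 (SE 0.13, edgeR adjusted p = 0.204) and Hsp90b1 of 0.52 (SE 0.21, edgeR adjusted p = 0.15). Log2 fold changes within the list ran from -0.17 to 1.12. The diets did not overlap in 22 of the 32 genes, against 19.2% of all genes tested. Without the high-duplicate ND libraries 4 of the list rose, Dnajc3 among them at 0.63 (edgeR adjusted p = 0.0269), and with the term for library numbers none did, with a list median of 0.67.

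Several stress-induced and immediate early transcription factors rose on HFD as well. A list of 34 genes known to be induced within minutes by growth factors, by stress and also by enzymatic dissociation of tissue had a median of 0.57. Of these, 7 rose and none fell, against 0.961% and 1.90% of all genes tested. Atf3 (ENSMUSG00000026628.13, chr1:191170296-191218039), a stress-induced factor downstream of ATF4, was 186, 205 and 298 CPM in HFD replicates 1 to 3 and 82.2, 44.2, 45.4 and 99.8 CPM in ND replicates 1 to 4. Every HFD library lay above every ND library, and the log2 fold change was 1.75 (SE 0.26, edgeR adjusted p = 0.00372). Egr1 was 945, 935 and 1718 CPM on HFD and 468, 207, 376 and 538 CPM on ND, with HFD replicate 3 well above the other HFD libraries (log2 fold change 1.59, SE 0.31, edgeR adjusted p = 0.0141). Klf6, a zinc finger factor, was 198, 216 and 331 CPM on HFD and 103, 71.9, 86.2 and 143 CPM on ND, again highest in HFD replicate 3 (log2 fold change 1.29, SE 0.24, edgeR adjusted p = 0.0107). Fos was 512, 503 and 551 CPM on HFD and 248, 183, 240.3 and 368 CPM on ND and rose by 1.01 (SE 0.20, edgeR adjusted p = 0.0153) on the log2 scale. Btg2, an antiproliferative gene in the same list, was 526, 541 and 588 CPM on HFD and 242, 295, 274 and 353 CPM on ND (log2 fold change 0.92, SE 0.19, edgeR adjusted p = 0.0173). Jun and Nr4a1 rose by 0.95 and 0.59 on the log2 scale, with edgeR adjusted p of 0.0255 and 0.0376. Without the high-duplicate ND libraries Atf3 alone of the 7 passed. There Egr1, Klf6, Fos, Btg2 and Jun had log2 fold changes of 1.28, 1.03, 0.78, 0.91 and 0.86, with edgeR adjusted p of 0.089, 0.0819, 0.0758, 0.0698 and 0.126, and Nr4a1 had 0.36 (edgeR adjusted p = 0.163). Within library numbers below 25, and with the term for library numbers, none of the 34 passed. All embryos went through the same trypsin step, whose timing in each library is not given, and its part in these values was not tested.

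**Figure D2:**
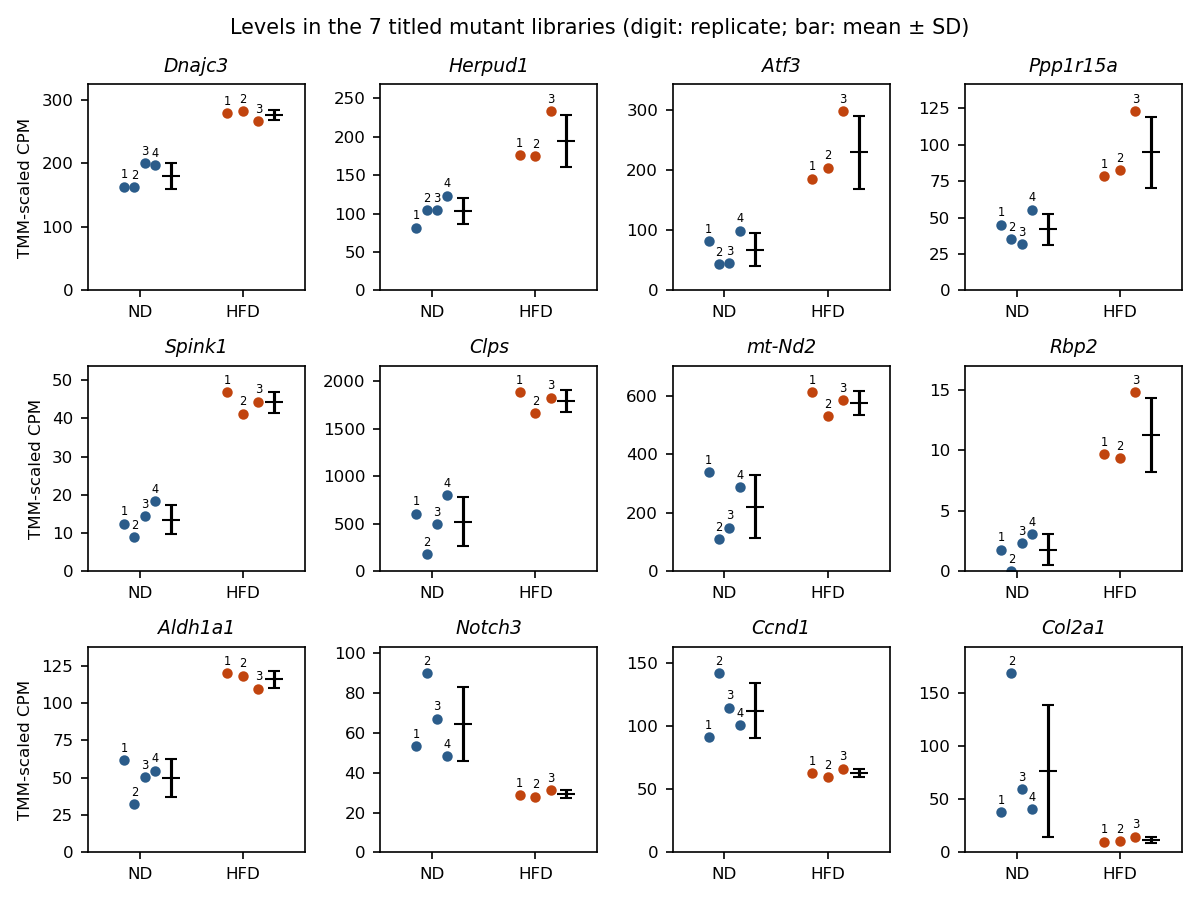
TMM-scaled CPM (y axis, from 0, a separate scale for each gene) of 12 genes in the 4 ND and 3 HFD libraries of titled mutant; each point is a library with its replicate number, and the bar beside it gives the mean ± SD. The diets do not overlap in any of the 12 genes. The same holds for all 227 genes that passed higher on HFD and 424 of the 449 lower ones, against 19.2% of all genes tested. ND replicate 2 stands apart in Col2a1 at 169 CPM.

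Genes of the amino acid response, which cells switch on when amino acids run short or ER stress slows translation, had a median of 0.37. There 4 of 45 were higher and none lower, against 0.961% and 1.90% of all genes tested. Ppp1r15a, whose product GADD34 restores translation after such stress, was 78.6, 82.8 and 123 CPM on HFD and 45.1, 35.4, 31.9 and 55.5 CPM on ND. Its levels did not overlap between the diets (log2 fold change 1.17, SE 0.21, edgeR adjusted p = 0.00849). Slc38a2, an amino acid transporter, was 265, 266 and 251 CPM on HFD and 186, 145, 194 and 185 CPM on ND (log2 fold change 0.55, SE 0.12, edgeR adjusted p = 0.0217). Wars, the cytosolic tryptophan tRNA ligase, changed by 0.63 (SE 0.14, edgeR adjusted p = 0.0217) on the log2 scale. Atf3 belongs to this list too. Without the high-duplicate ND libraries Atf3 kept 1.36 (edgeR adjusted p = 0.0302), while Ppp1r15a had 0.94 (edgeR adjusted p = 0.0671) and Slc38a2 0.51 (edgeR adjusted p = 0.0539).

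Acinar genes were detected at high levels in these sorted cells. Their summed level was 40580, 38150 and 40120 CPM in HFD replicates 1 to 3 and 15080, 20360, 25150 and 28120 CPM in ND replicates 1 to 4, so no ND library reached the HFD range. Of 35 genes, 3 rose, against 0.961% of all genes tested, and the list median was 0.81. All 35 had a log2 fold change above 0, as did 11629 of all 23630 genes tested. Spink1, a trypsin inhibitor, was 46.8, 41.3 and 44.4 CPM on HFD and 12.5, 9.03, 14.4 and 18.3 CPM on ND. The lowest HFD library was above the highest ND library, and the change was 1.69 (SE 0.26, edgeR adjusted p = 0.00372) on the log2 scale. Clps, the cofactor of pancreatic lipase, was 1879, 1659 and 1825 CPM on HFD and 605, 183, 499 and 803 CPM on ND (log2 fold change 1.77, SE 0.39, edgeR adjusted p = 0.0244). Pnliprp1, a lipase-related protein, was 11789, 11214 and 12114 CPM on HFD and 4051, 3767, 6428 and 7624 CPM on ND (log2 fold change 1.10, SE 0.28, edgeR adjusted p = 0.0401). The factor Ptf1a, which drives the acinar program, was 48.8, 47.4 and 38.8 CPM on HFD and 21.3, 67.1, 37.3 and 29.9 CPM on ND and did not differ beyond its error (log2 fold change 0.22, SE 0.37, edgeR adjusted p = 0.75). Cpa1, which also marks early multipotent tip cells, was 5348, 5075 and 5176 CPM on HFD and 2648, 4055, 4346 and 3884 CPM on ND (log2 fold change 0.48, SE 0.26, edgeR adjusted p = 0.284). Without the high-duplicate ND libraries Spink1 kept 1.54 (edgeR adjusted p = 0.0318), while Clps had 1.36 (edgeR adjusted p = 0.0974) and Pnliprp1 1.02 (edgeR adjusted p = 0.137). In bulk RNA more acinar cells among the sorted cells and more acinar RNA per cell cannot be told apart.

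**Figure D3:**
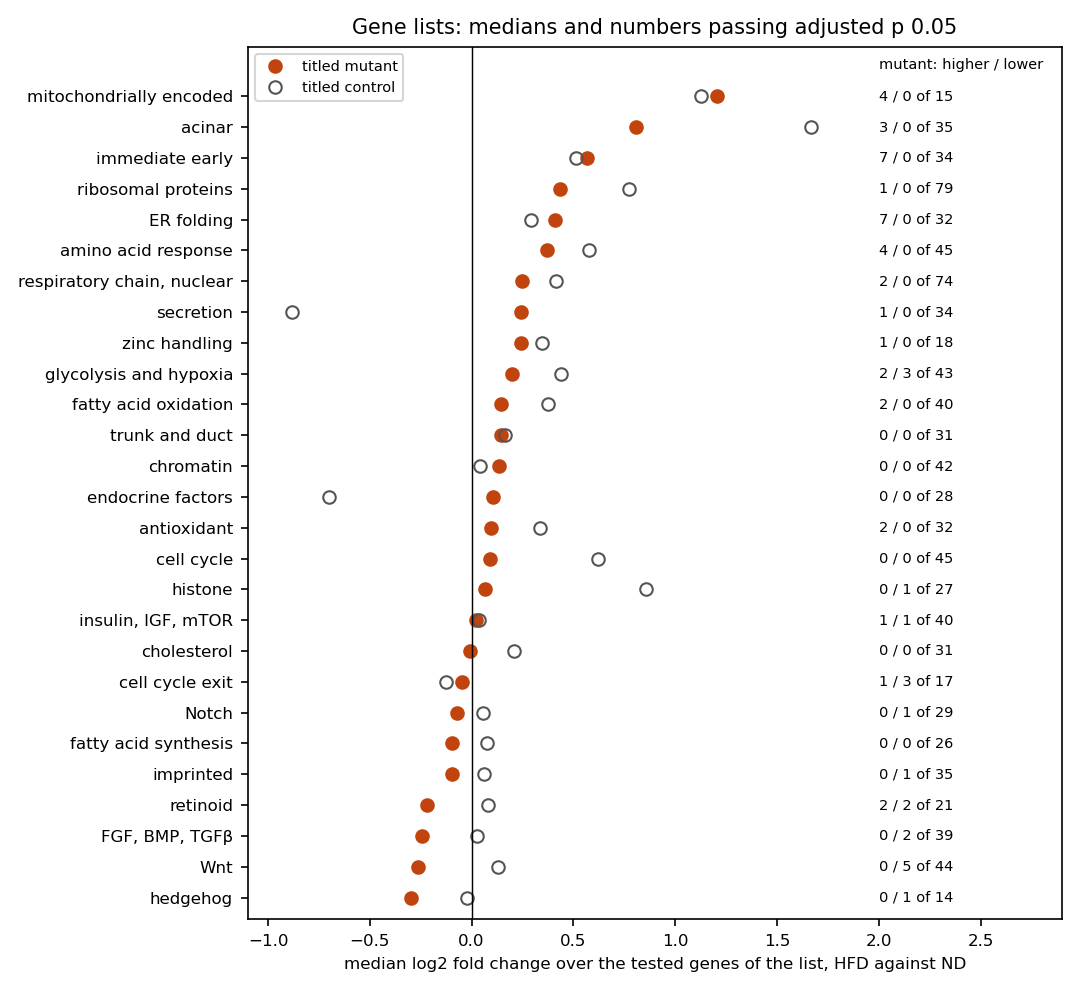
Median log2 fold change, HFD against ND (x axis), over the tested genes of 27 gene lists (y axis) in titled mutant (filled) and titled control (open), with the numbers of genes that passed in titled mutant at the right. The 5 marker lists of other cell types, the hormone list and a list of structural noncoding RNAs are not drawn. Among the lists drawn, mitochondrially encoded and acinar genes have the highest medians in titled mutant, and hedgehog and Wnt genes the lowest.

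Transcripts of the mitochondrial genome rose in 4 of 15 genes, against 0.961% of all genes tested, with a median of 1.21. mt-Nd2, a subunit of respiratory complex I, was 612, 532 and 587 CPM on HFD and 339.6, 111, 149 and 287 CPM on ND (log2 fold change 1.38, SE 0.31, edgeR adjusted p = 0.0247). The levels of mt-Nd5 were 1185, 1139 and 1336 CPM on HFD and 764, 250.3, 473 and 728 CPM on ND (log2 fold change 1.14, SE 0.29, edgeR adjusted p = 0.0416). In both genes ND replicate 2 was lowest, and ND replicate 1, with the fewest duplicates of the ND libraries, was highest of the ND libraries. mt-Nd6 and the ribosomal RNA mt-Rnr2 changed by 1.12 (SE 0.29, edgeR adjusted p = 0.0423) and 1.73 (SE 0.46, edgeR adjusted p = 0.0468). None of the 15 passed without ND replicate 2. Among nuclear genes for the respiratory chain 2 of 74 rose, against 0.961% of all genes tested, with a median of 0.25, and none rose without ND replicate 2. Atp5c1, of the ATP synthase, was 132, 129 and 149 CPM on HFD and 103, 62.9, 90.1 and 96.6 CPM on ND (log2 fold change 0.63, SE 0.15, edgeR adjusted p = 0.0321), and Cox5b, of complex IV, changed by 0.73 (SE 0.18, edgeR adjusted p = 0.0354). Ribosomal protein genes had a median of 0.43, but only Rpl26 of 79 passed, at 130.4, 117 and 71.6 CPM on HFD and 41.5, 12.2, 22 and 34 CPM on ND (log2 fold change 1.94, SE 0.40, edgeR adjusted p = 0.0175). Rpl26 has near-identical copies in the genome, so its reads could be split by the counting, and it had 1.51 (edgeR adjusted p = 0.0855) without the high-duplicate ND libraries.

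Genes that handle vitamin A moved in both directions. Retinol is carried by binding proteins and oxidised to retinoic acid, a signal that patterns the pancreas. Of 21 retinoid genes 2 rose and 2 fell, against 0.961% and 1.90% of all genes tested. Rbp2, a cellular retinol-binding protein best known from the gut, was 9.68, 9.36 and 14.8 CPM on HFD and 1.81, 0, 2.36 and 3.06 CPM on ND (log2 fold change 2.53, SE 0.57, edgeR adjusted p = 0.0255). Aldh1a1, which makes retinoic acid from retinal, was 119.9, 118 and 109.5 CPM on HFD and 61.9, 32.5, 50.4 and 54.8 CPM on ND (log2 fold change 1.21, SE 0.25, edgeR adjusted p = 0.0158). For both genes the diets did not overlap, but without the high-duplicate ND libraries Rbp2 had 2.23 (edgeR adjusted p = 0.0843) and Aldh1a1 1.005 (edgeR adjusted p = 0.0733). Cyp26b1, which breaks down retinoic acid, was 0.609, 0.8 and 0.701 CPM on HFD and 1.28, 6.69, 3.67 and 0.748 CPM on ND and fell (log2 fold change -2.07, SE 0.55, edgeR adjusted p = 0.0458), but its ND levels spread widely, and ND replicate 4 lay within the HFD range. It had -0.51 (edgeR adjusted p = 0.523) without the high-duplicate ND libraries. Among 40 genes for fatty acid use 2 rose and none fell, against 0.961% and 1.90% of all genes tested. Fabp5, a fatty acid carrier, rose by 1.12 (SE 0.28, edgeR adjusted p = 0.0355) and Pdk4, which turns pyruvate away from oxidation, by 2.00 (SE 0.53, edgeR adjusted p = 0.0451). Pdk4 was 3.41, 3.41 and 9.17 CPM on HFD and 1.06, 1.99, 0.978 and 1.47 CPM on ND, so its change leaned on HFD replicate 3, and it passed in 0 of the 7 fits that left out a library. None of 31 cholesterol genes and none of 26 fatty acid synthesis genes passed in edgeR, against 2.86% of all genes tested. Their medians were -0.01 and -0.10. At an unadjusted p under 0.05 the number in each list was 8 and 2, against 5372 of all 23630 genes tested. DESeq2 passed 4 and 0, against 2373 of the 20872 genes to which it gave an adjusted p.

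A list of 43 genes of glycolysis and of hypoxia had 2 higher and 3 lower, against 0.961% and 1.90% of all genes tested. Egln3, an oxygen-dependent hydroxylase induced by hypoxia, was 43.7, 39.8 and 52.1 CPM on HFD and 14.4, 10.9, 17.5 and 21.6 CPM on ND (log2 fold change 1.48, SE 0.33, edgeR adjusted p = 0.0238). Pfkp, a phosphofructokinase, rose by 0.64 (SE 0.15, edgeR adjusted p = 0.0257). Slc2a3, the glucose transporter GLUT3, was 3.25, 2.64 and 1.95 CPM on HFD and 6.56, 7.74, 6.48 and 7.7 CPM on ND and fell (log2 fold change -1.44, SE 0.30, edgeR adjusted p = 0.0167). Ldhb, a lactate dehydrogenase subunit, was 9.97, 11.3 and 10.2 CPM on HFD and 15.2, 17, 17.1 and 16.4 CPM on ND (log2 fold change -0.64, SE 0.14, edgeR adjusted p = 0.0217), and Hk1, a hexokinase, fell (log2 fold change -0.82, edgeR adjusted p = 0.0408). The antioxidant genes Gstm1 and Sod2 rose by 1.20 (SE 0.29, edgeR adjusted p = 0.033) and 0.53 (SE 0.12, edgeR adjusted p = 0.0247). They were the only 2 of 32 to pass, against 2.86% of all genes tested. Of 18 genes for zinc handling only Slc39a14, a zinc and iron importer, passed, against 2.86% of all genes tested. It was 79.8, 81.4 and 71.3 CPM on HFD and 42.2, 49.4, 55.9 and 55.9 CPM on ND (log2 fold change 0.61, SE 0.15, edgeR adjusted p = 0.0331). In insulin and growth factor signalling Irs2, an adaptor of the insulin receptor, was 357, 351 and 373 CPM on HFD and 181, 213, 181 and 176 CPM on ND (log2 fold change 0.94, SE 0.25, edgeR adjusted p = 0.0433). Igfbp4, which binds insulin-like growth factors, was 69, 74 and 36.8 CPM on HFD and 124, 286, 235 and 236 CPM on ND (log2 fold change -1.87, SE 0.40, edgeR adjusted p = 0.0214). Those were the only 2 of 40 genes of that list to pass, against 2.86% of all genes tested. Of the genes of glycolysis and hypoxia, antioxidant defence, zinc and insulin named here, Slc2a3, Ldhb and Slc39a14 passed without the high-duplicate ND libraries.

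Under the naming rule, which asks for a mean level of 5 CPM or more and no overlap between the diets, the 12 largest increases also included Slc26a9, Hmga1b and Acpp. Slc26a9, an epithelial chloride channel, was 103, 108 and 99.2 CPM on HFD and 14.5, 19.6, 25.1 and 59.5 CPM on ND (log2 fold change 1.79, SE 0.45, edgeR adjusted p = 0.0394). Hmga1b, a chromatin protein with a near-identical paralog, was 31.2, 26.4 and 27.5 CPM on HFD and 8.2, 3.05, 2.81 and 11.2 CPM on ND (log2 fold change 2.13, SE 0.50, edgeR adjusted p = 0.0307). Acpp, an acid phosphatase, changed by 1.34 (SE 0.32, edgeR adjusted p = 0.0319). None of the 3 passed without the high-duplicate ND libraries, with edgeR adjusted p of 0.227, 0.174 and 0.0725.

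Several signalling genes fell on HFD. Of 44 Wnt pathway genes 5 fell and none rose, against 1.90% and 0.961% of all genes tested, with a median of -0.26. Wnt5a, a ligand of the non-canonical pathway, was 4.65, 4.73 and 4.9 CPM on HFD and 7.24, 11.8, 14 and 8.2 CPM on ND (log2 fold change -1.11, SE 0.23, edgeR adjusted p = 0.0157), and its receptor Ror1 was 11.9, 12.3 and 11.4 CPM on HFD and 20.9, 26.4, 17.8 and 17.7 CPM on ND (log2 fold change -0.80, SE 0.19, edgeR adjusted p = 0.0273). Sfrp1, a secreted Wnt antagonist, was 9.25, 9.36 and 6.31 CPM on HFD and 16.2, 36.9, 29 and 18.2 CPM on ND (log2 fold change -1.59, SE 0.33, edgeR adjusted p = 0.0168). These 3 genes had every HFD library below every ND library, and the diets did not overlap in 424 of all 449 lower genes. Wnt4 fell (log2 fold change -1.500, edgeR adjusted p = 0.0436), and Lgr6 was at most 0.0348 CPM on HFD and 0.319, 0.586, 1.34 and 0.125 CPM on ND. Notch3 (ENSMUSG00000038146.8, chr17:32120820-32166852), a receptor best known from smooth muscle and pericytes, was 28.7, 28 and 31.3 CPM on HFD and 53.1, 89.8, 67.1 and 48.4 CPM on ND (log2 fold change -1.14, SE 0.19, edgeR adjusted p = 0.0057). It was the only one of 29 Notch pathway genes to pass, against 2.86% of all genes tested. Hes1, the main Notch target in the progenitors, was 118, 107 and 179 CPM on HFD and 70.3, 93.2, 83.3 and 82.6 CPM on ND (log2 fold change 0.71, SE 0.24, edgeR adjusted p = 0.0976). The ligands Tgfb1 and Tgfb2 fell, with log2 fold changes of -1.604 and -1.32 and edgeR adjusted p of 0.0222 and 0.0314. They were the only 2 of 39 FGF, BMP and TGFβ genes to pass, against 2.86% of all genes tested. Of 14 hedgehog genes only the co-receptor Gas1 passed, against 2.86% of all genes tested. Gas1 was 32.8, 29 and 27.4 CPM on HFD and 36, 86.7, 61.6 and 35.9 CPM on ND (log2 fold change -0.88, SE 0.24, edgeR adjusted p = 0.049). Leaving out the high-duplicate ND libraries kept Notch3 at -0.78 (edgeR adjusted p = 0.0254), while no Wnt gene passed. There Wnt5a had -0.68 (edgeR adjusted p = 0.0624), Sfrp1 -1.04 (edgeR adjusted p = 0.108), Wnt4 -0.76 (edgeR adjusted p = 0.147) and Gas1 -0.26 (edgeR adjusted p = 0.456), and neither Tgfb1 nor Tgfb2 passed. On the FPKM table, with pseudocounts of 1 and 0.1, the Wnt median was 0.002 and 0.089, below the medians of 0.14 and 0.342 over all genes on those scales.

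Genes of the cell cycle exit list split, with Btg2 higher and 3 of 17 lower, against 0.961% and 1.90% of all genes tested. Ccnd1, the cyclin that carries cells through G1, was 62.8, 59.3 and 66.2 CPM on HFD and 91.4, 142, 115 and 101 CPM on ND (log2 fold change -0.83, SE 0.17, edgeR adjusted p = 0.0157). Cdkn1c, an imprinted cell cycle inhibitor, was 90.3, 95 and 87.2 CPM on HFD and 102, 199, 182 and 143 CPM on ND (log2 fold change -0.78, SE 0.16, edgeR adjusted p = 0.0175). Cdkn2c, another inhibitor, was 5.57, 5.77 and 5.42 CPM on HFD and 7.63, 25.6, 14.3 and 11.5 CPM on ND (log2 fold change -1.38, SE 0.31, edgeR adjusted p = 0.0236). In all 3 the diets did not overlap, as in 424 of the 449 lower genes, and ND replicate 2 was highest. No gene of the list passed without the high-duplicate ND libraries, and there Ccnd1 had a log2 fold change of -0.60 (edgeR adjusted p = 0.0625), Cdkn1c of -0.41 (edgeR adjusted p = 0.0788) and Cdkn2c of -0.76 (edgeR adjusted p = 0.123). Within library numbers below 25 and with the term for library numbers none passed either. None of 45 proliferation genes passed in edgeR, against 2.86% of all genes tested, and the median was 0.09. At an unadjusted p under 0.05 there were 3, against 5372 of all 23630 genes, and DESeq2 passed 1, against 2373 of 20872. Mki67, a marker of cycling cells, was 791, 734 and 803 CPM on HFD and 634, 577, 594 and 645 CPM on ND (log2 fold change 0.34, SE 0.18, edgeR adjusted p = 0.27). Of 27 histone genes only the linker histone H1f1 passed, against 2.86% of all genes tested. It was 156, 149 and 179 CPM on HFD and 175, 937, 525 and 264 CPM on ND (log2 fold change -1.56, SE 0.40, edgeR adjusted p = 0.0423), with ND replicates 2 and 3 far above the rest and ND replicate 1 within the HFD range. It had -0.42 (edgeR adjusted p = 0.28) without the high-duplicate ND libraries.

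The 12 largest decreases by the naming rule included collagens, genes of growing nerve fibres and genes of blood cells. Col2a1 (ENSMUSG00000022483.17, chr15:97975602-98004695), the collagen of cartilage, was 10, 10.8 and 14.9 CPM in HFD replicates 1 to 3 and 38.3, 169, 59.6 and 40.7 CPM in ND replicates 1 to 4. Every ND library was above every HFD library, which the naming rule asks for (log2 fold change -2.68, SE 0.44, edgeR adjusted p = 0.0057). Col16a1, a minor collagen, was 21.4, 22.9 and 18 CPM on HFD and 35.9, 188, 66 and 39.2 CPM on ND (log2 fold change -1.98, SE 0.45, edgeR adjusted p = 0.026), and Col26a1 was 1.89, 2.33 and 0.335 CPM on HFD and 2.84, 15.48, 13.4 and 4.52 CPM on ND (log2 fold change -2.55, SE 0.62, edgeR adjusted p = 0.0329). P3h3, which modifies collagen, fell (log2 fold change -1.97, edgeR adjusted p = 0.0143). Ngfr, the low-affinity neurotrophin receptor of nerve and mesenchymal cells, was 2.35, 0.974 and 0.487 CPM on HFD and 3.94, 22.5, 7.86 and 3.93 CPM on ND (log2 fold change -2.86, SE 0.73, edgeR adjusted p = 0.0401). Basp1, a growth cone protein, was 8.55, 10.2 and 3.38 CPM on HFD and 15.6, 111, 45.9 and 21.3 CPM on ND (log2 fold change -2.70, SE 0.61, edgeR adjusted p = 0.0269). In these genes ND replicate 2 was highest, and ND replicates 1 and 4 lay nearer to the HFD libraries. Adgrb2, Cntfr, Inka1 and Scarf2 fell, with log2 fold changes of -2.62, -2.30, -2.26 and -2.18 and edgeR adjusted p of 0.033, 0.0355, 0.0168 and 0.0418. Coro1a, an actin-binding protein of blood cells, was 28.4, 22.4 and 13.4 CPM on HFD and 63.1, 156, 72 and 115 CPM on ND (log2 fold change -2.24, SE 0.37, edgeR adjusted p = 0.0057). Aif1, a macrophage marker, was 3.05, 3.03 and 1.95 CPM on HFD and 7.84, 10.9, 6.44 and 18.3 CPM on ND, with ND replicate 4 highest (log2 fold change -2.02, SE 0.54, edgeR adjusted p = 0.0464). Without the high-duplicate ND libraries Col2a1 kept -1.71 (edgeR adjusted p = 0.0149) and Coro1a -2.04 (edgeR adjusted p = 0.037), and the other 10 did not pass. Col16a1 then had -0.84 (edgeR adjusted p = 0.0734), Col26a1 -1.26 (edgeR adjusted p = 0.243), P3h3 -0.95 (edgeR adjusted p = 0.0605), Ngfr -1.59 (edgeR adjusted p = 0.223) and Basp1 -1.31 (edgeR adjusted p = 0.144). Adgrb2, Cntfr, Inka1 and Scarf2 had log2 fold changes of -1.42, -1.13, -1.501 and -1.11, with edgeR adjusted p of 0.223, 0.246, 0.0729 and 0.288, and Aif1 had -2.27 (edgeR adjusted p = 0.0926).

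Marker lists of other cell types had negative medians, but the summed neural crest and glia level was higher on HFD. The 25 mesenchymal markers summed to 1172, 1139 and 456.3 CPM in HFD replicates 1 to 3 and to 1539, 11150, 5428 and 1993 CPM in ND replicates 1 to 4, with no HFD library reaching the lowest ND library. Their median log2 fold change was -1.74, and 3 of 25 passed, Vim, Thy1 and Tlx1, against 2.86% of all genes tested. Vim, an intermediate filament of mesenchyme, was 176, 159 and 173 CPM on HFD and 278, 215, 295 and 278 CPM on ND (log2 fold change -0.65, SE 0.14, edgeR adjusted p = 0.0214), and Thy1 was 0.474, 0.522 and 0.0914 CPM on HFD and 1.24, 3.75, 2.2 and 0.655 CPM on ND (log2 fold change -2.36, SE 0.64, edgeR adjusted p = 0.0486). Tlx1, a factor of spleen mesenchyme, was 0.0677, 0.209 and 0.0305 CPM on HFD and 0.319, 2.58, 5.91 and 1.19 CPM on ND. Col1a1, the most abundant marker, was 270.2, 272 and 40.7 CPM on HFD and 314, 4662, 1810 and 457 CPM on ND and did not pass (edgeR adjusted p = 0.117). None of the 25 was at 0 in all 3 HFD libraries, the lowest being Nkx2-5 at 0.0451, 0 and 0 CPM on HFD and 0, 4.93, 3.95 and 0.312 CPM on ND. Blood and immune markers summed to 151.3 to 270.3 CPM on HFD and 382.2 to 953 CPM on ND, with none of 21 passing and a median of -1.56. Liver markers summed to 236.2 to 262.4 CPM on HFD and 389 to 850.8 CPM on ND, with none of 16 passing and a median of -3.82. The liver gene Alb was 8.37, 8.14 and 2.5 CPM on HFD and 161, 13.3, 21.9 and 186 CPM on ND. Endothelial markers summed to 216.1 to 349.5 CPM on HFD and 280.7 to 529.6 CPM on ND, with none of 16 passing. For these 3 lists DESeq2 passed 5, 8 and 2 genes, all lower, against 2373 of 20872 over all genes. An unadjusted p under 0.05 in edgeR was seen for 14, 13 and 6, against 5372 of all 23630 genes. The 18 neural crest and glia markers summed to 353.5, 356.3 and 394.6 CPM on HFD and to 286.3, 337.9, 351.7 and 325.6 CPM on ND. Their median was -1.17, and 1 rose and 1 fell, against 0.961% and 1.90% of all genes tested. Gap43, a growth cone protein, fell (log2 fold change -1.80, SE 0.48, edgeR adjusted p = 0.0458). Ret, a receptor also used outside the nervous system, was 169.5, 176 and 177 CPM on HFD and 79.2, 143, 107 and 101 CPM on ND and rose (log2 fold change 0.70, SE 0.17, edgeR adjusted p = 0.033). Vim and Ret passed without the high-duplicate ND libraries, while Thy1 had -1.36 (edgeR adjusted p = 0.257) and Gap43 -0.75 (edgeR adjusted p = 0.363). The part of these other cells in the lower genes was not tested. Mesenchymal, blood and liver sums were lower on HFD without overlap, neural crest and glia sums were higher without overlap, and endothelial sums overlapped.

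**Figure D4:**
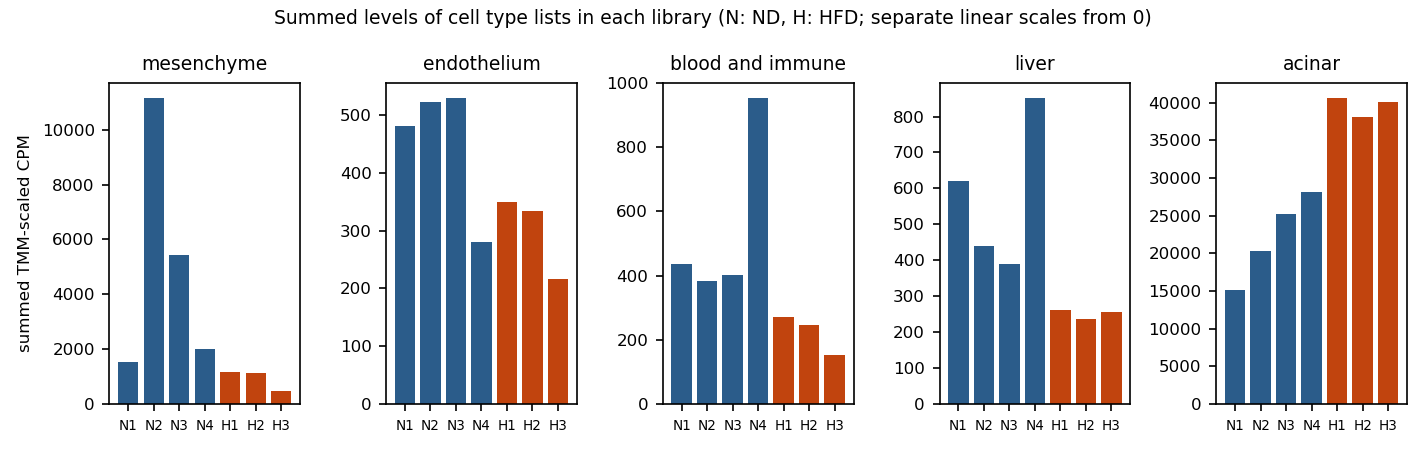
Summed TMM-scaled CPM (y axes, from 0, separate scales) of marker lists of 4 other cell types and of the acinar list in ND replicates 1 to 4 (N) and HFD replicates 1 to 3 (H). Mesenchymal sums peak at 11150 CPM in ND replicate 2, blood and liver sums in ND replicate 4, and acinar sums are highest in the 3 HFD libraries. The neural crest and glia list, whose sums were higher on HFD, is not drawn.

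Islet hormone genes were at low levels and did not pass. Ins2, the main insulin gene, was 24.3, 1.6 and 0.0305 CPM on HFD and 1.24, 0, 0.611 and 1.62 CPM on ND, and Ins1 was 14.6, 0.522 and 0 CPM on HFD and 0.745, 0, 0.0815 and 0.967 CPM on ND. Gcg, the glucagon gene, was 6.74, 0.557 and 0.0914 CPM on HFD and 1.38, 0, 0.774 and 0.437 CPM on ND, and Sst, the somatostatin gene, was 5.57, 0.0348 and 0 CPM on HFD and 0.213, 0, 0.367 and 0 CPM on ND. HFD replicate 1 was highest in each of these 4, and the other 6 libraries lay at 1.62 CPM or below. Neurod1, a direct target of Neurog3, was at 1.89 CPM in HFD replicate 1 and at 0.106 CPM or 0 in the others. Titled control libraries held 511 to 3086 CPM of Ins2. Without HFD replicate 1 and LPD replicates 1 and 2, the titled mutant libraries with the most hormone counts, 24 genes passed between the diets, all among the 676. Ghrl, the ghrelin gene, was 2.98, 3.9 and 3.17 CPM on HFD and 2.34, 1.29, 2 and 2.18 CPM on ND, higher in every HFD library but not past the test (log2 fold change 0.74, SE 0.41, edgeR adjusted p = 0.286). Glp1r, the receptor of the incretin GLP-1, was 2.05, 1.6 and 1.34 CPM on HFD and 0.39, 0, 0.611 and 0.717 CPM on ND and passed (log2 fold change 1.74, SE 0.46, edgeR adjusted p = 0.0437). It was the only one of 34 secretion genes to do so, against 2.86% of all genes tested. It passed in 1 of the 7 fits that left out a library. None of 28 endocrine factors and none of 31 trunk and duct genes passed in edgeR, against 2.86% of all genes tested. At an unadjusted p under 0.05 there were 4 and 6, against 5372 of all 23630 genes. DESeq2 passed 1 and 2, against 2373 of 20872. Mlxipl, the sugar-sensing factor ChREBP, was 16.6, 11.9 and 15.8 CPM on HFD and 12.3, 2.7, 7.82 and 7.67 CPM on ND (log2 fold change 0.91, SE 0.33, edgeR adjusted p = 0.122), and the chromatin remodeller Smarca1 was 43, 42.2 and 45.1 CPM on HFD and 22.3, 4.93, 25.7 and 27.1 CPM on ND (log2 fold change 1.09, SE 0.33, edgeR adjusted p = 0.0754).

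The same diet contrast was fitted in titled control, 3 HFD and 3 ND libraries, to ask whether the change depended on the title. There 924 genes passed (3.91%), 733 higher (3.10%) and 191 lower (0.808%). Of the 227 genes higher in titled mutant 212 had the same sign in titled control, as did 428 of the 449 lower genes, against 15948 of all 23630 genes. The titled control ND libraries included one with 79.1% duplicates, and their library numbers are 8, 31 and 32 against 11, 12 and 15 on HFD, so both titles share the same imbalance. The test of the difference between the titles passed 0 genes in edgeR, with 1677 (7.10%) at an unadjusted p under 0.05, and 11 genes in DESeq2. A change that passed in only 1 title is therefore not shown to differ. Atf3 rose by 1.35 in titled control (edgeR adjusted p = 0.0126) and differed by 0.40 between the titles (edgeR adjusted p = 0.857). Spink1 rose by 1.93 in titled control (edgeR adjusted p = 0.00243), and Dnajc3 by 0.65 (edgeR adjusted p = 0.00731). For both, the difference between titles was within its error, -0.24 and -0.04 on the log2 scale. Acinar genes had a median of 1.67 in titled control, with 16 of 35 higher, against 0.81 in titled mutant, and in neither comparison did any fall. The Wnt median was 0.13 in titled control, with 4 genes higher and none lower, against -0.26 in titled mutant. Mesenchymal and endothelial medians were -0.08 and 0.40 in titled control, against -1.74 and -0.64 in titled mutant. Blood and liver medians were negative in both titles, at -0.73 and -1.56 in titled control. Glp1r went in opposite directions, with -1.24 in titled control and 1.74 in titled mutant, and its difference of 2.98 had an edgeR adjusted p of 0.639. Gas1 had 0.64 in titled control and -0.88 in titled mutant, a difference of -1.52 (edgeR adjusted p = 0.639).

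**Figure D5:**
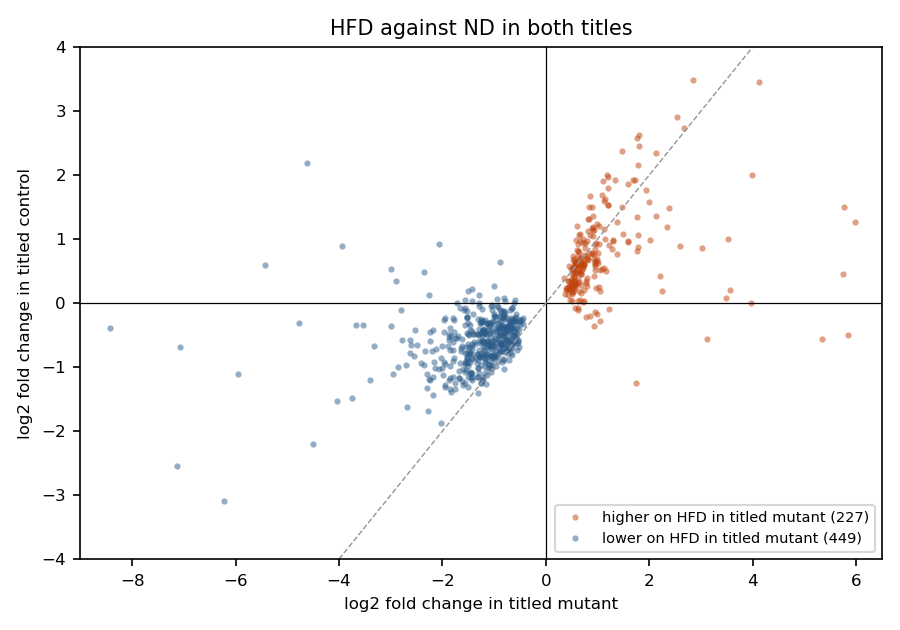
Log2 fold change, HFD against ND, in titled mutant (x axis) and titled control (y axis) for the 676 genes that passed in titled mutant; the dashed line marks equal change. Points lie mostly in the lower left and upper right, 428 of the 449 lower and 212 of the 227 higher genes having the same sign in both titles.

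The 4 titled mutant libraries of dams on low-protein diet (LPD) are set beside these by level only, since a comparison with either diet would share libraries with the one above. Atf3 was 139.7, 135, 113 and 146 CPM in LPD replicates 1 to 4, above all ND and below all HFD libraries. Spink1 was 47.8, 43.5, 37.8 and 31.2 CPM on LPD, overlapping the HFD range and above all ND libraries. Col2a1 was 20.2, 20.1, 12 and 18.8 CPM and Notch3 38.3, 39.6, 33.3 and 37 CPM on LPD, below all ND libraries in both. These LPD libraries had 39.1% to 45.1% duplicates, less than any HFD or ND library of titled mutant, and library numbers of 18 to 21.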

How the data were processed

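Total RNA of sorted eGFP-positive cells (50 ng, RIN above 7.5, stranded, ribosomal RNA depleted) was sequenced by Illumina short reads, per the labels. The submitters' processing notes name cutadapt 2.10, STAR 2.7.8a, featureCounts 2.0.2 and GRCm38.p6. The deposited table gives raw counts per gene, which were used as deposited, and FPKM made by the authors, used only in an alternative. Duplicate and alignment percent values are those of the deposited quality table. 2 lines of the table that name no gene were left out of 40173 genes, and 26 symbols turned into dates were restored.

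Counts of 21 pancreatic libraries in 6 groups of title and diet were fitted with edgeR 4.0.16 in R 4.3.3 (TMM, filterByExpr, robust quasi-likelihood test). P-values were Benjamini-Hochberg adjusted over the 23630 genes kept, with a threshold of 0.05. A library labelled as mixed and 2 hypothalamic libraries were not used. Alternatives used DESeq2 1.42.0, limma 3.58.1 on log2(FPKM + 1) and log2(FPKM + 0.1), other sets of libraries, added terms and, chosen after seeing the data, an offset for GC content.

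Genes were named by rule: of those that passed with an established symbol, a mean of at least 5 CPM and no overlap between diets, the 12 that rose most and the 12 that fell most, up to 4 passing members of each of 34 lists, and 14 progenitor, endocrine and acinar genes. Hspa5, Hsp90b1, Jun, Nr4a1, Hk1, Wnt4, cell type markers and the 8 genes that passed in 3 settings were named after their values were seen. The comparison and the lists were chosen with earlier results of these data known. CPM values use TMM-scaled library sizes that include Gm26917. Promoters are from RefSeq. The values of some genes covered by the rule are not reported here. PCR duplicates are in the counts, so precision is less than the totals give.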

Additional observations from a re-analysis of the deposited data

Results flagged for a closer look

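In the group of 4 ND libraries, 104 values of genes, list sums and library measures were examined, and in 7 of them 1 library lay far from the other 3 by Dixon's ratio, whose chance rate is about 1 in 20 groups. In 4 of the 7 the library was ND replicate 2, the one with the most duplicates. Dnajb9 was 7.27 CPM there, against 17.03 to 17.96 CPM in the others. Col2a1 was 169 CPM there, against 38.3 to 59.6 CPM. Irs2 was 213 CPM there, against 176 to 181 CPM, and Wnt4 was 8.56 CPM, against 2.16 to 2.65 CPM. ND replicate 1 was low for Hk1, at 16.7 CPM against 21.3 to 22.1 CPM. ND replicate 3 was high for Rnf157, at 13.1 CPM against 12.2 to 12.3 CPM. The summed level of the blood and immune markers was 953 CPM in ND replicate 4, against 382.2 to 435.3 CPM. Groups of 3 libraries were not examined.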

How the results depend on the processing

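The number of genes past the threshold between HFD and ND in titled mutant was 676 and moved by over 1.5 times in most settings. It was 2373 with DESeq2, 418 with no filter on low counts, 6 and 8 with limma on log2(FPKM + 1) and log2(FPKM + 0.1), and 0 with the 7 compared libraries alone. It was 312 without ND libraries of over 70% duplicates, 24 without HFD replicate 1 and LPD replicates 1 and 2, 12 with a covariate marking the libraries numbered from 25 up and 63 within numbers below 25. Leaving out 1 library at a time gave 42 to 1835 genes. DESeq2 size factors gave 779, Gm26917 left out gave 708, its share as a covariate 551 and the GC offset 893. Higher genes made up 33.6% of the calls, against 44.2% with the GC offset, 50% with the number covariate, 45.8% without the libraries of high hormone counts, and 83.3% and 87.5% on the FPKM scales, where the median of all genes was 0.14 and 0.342. The cause of these moves was not tested. All 676 genes with a value kept their sign in every setting, apart from 1 gene under the number covariate. They were chosen in these same libraries, mostly with levels that did not overlap, so a kept sign was nearly fixed in advance.

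Replicate numbers are shared between the diets, and the labels do not say whether they pair the libraries. Deviations of same-numbered libraries correlated at 0.033, 0 and -0.136, and those of other-numbered libraries at -0.092 to 0.159. With so few libraries these values cannot show whether a pairing exists. A fit with the replicate number as a block gave 60 genes, 59 of them among the 676.

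For the difference between the titles the number of genes was 0, with 11 under DESeq2 and 1 within library numbers below 25, and 0 in the other settings. Sox9 and Pdx1, which did not pass, turned positive with limma on FPKM, Sox9 to 0.20 and 0.21 and Pdx1 to 0.17 and 0.18, and Neurog3 to 0.014 within numbers below 25. Of 91 genes whose fold change is given, Tat left aside, 78 passed, and 18 of these still passed without the high-duplicate ND libraries. None of the 78 reversed in any setting, but they were chosen in the same libraries. ND replicate 2 held 7390739 counts outside Gm26917, which limits the precision of low-level genes in it.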

Other observations

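None of 42 chromatin regulators passed in edgeR or DESeq2, with 10 at an unadjusted p under 0.05 and a median of 0.13. Over all genes 676 of 23630 passed in edgeR, 5372 had an unadjusted p under 0.05, and 2373 of 20872 passed in DESeq2. Of 35 imprinted genes 1 passed, Cdkn1c, against 2.86% of all genes tested, and the list median was -0.10. None of 13 hormone genes passed in edgeR or DESeq2, with 1 at an unadjusted p under 0.05.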
